A study of Mus musculus with 16 samples.

Results

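Of 10066 features with a mean normalised read count of at least 20 over 16 libraries, 100 had all 8 knockout values on the same side of all 8 wild-type values. In 75 of them each knockout library lay below each wild-type library, and in 25 each knockout library lay above. These are 0.745% and 0.248% of the features with that mean level. The tables held 27802 features after removal of 1 duplicated row. The features were chosen by these same genotype values in all 16 libraries, so the size of the genotype difference is given as a description with no test. The features are numbered by the size of that difference averaged over the 4 times, L1 to L75 for those lower in the knockout and H1 to H25 for those higher.

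The libraries were made from polyadenylated RNA of regulatory T cells sorted by flow cytometry from mouse spleen as CD4+ cells with high CD25. The wild-type (WT) mice were C57BL/6, and the knockout (KO) mice lacked Sh2d2a, the gene of the adaptor protein TSAd; donors were matched for sex and age. Cells were taken unstimulated (0 h) or after 2, 8 or 24 h on plates coated with antibody to CD3 (clone 145-2C11) at 1 µg/ml. There were 8 groups, 1 for each genotype at each time, with 2 libraries in each. The sources used here give neither the ages nor the deleted stretch of Sh2d2a. They also do not say whether a pair of libraries stems from different mice, so that p-values reflect only how far these libraries spread, which may be technical. No group was cultured without the antibody, and time in culture and time on the antibody cannot be told apart.

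Regulatory T cells restrain other immune cells and depend on the transcription factor Foxp3. The T-cell receptor signals through the CD3 chains, on which the kinase Lck acts first, and an antibody to CD3 sets off this signal without antigen. TSAd is an adaptor with an SH2 domain that binds Lck in T cells, and the comparison of genotypes over time addresses what its loss does to RNA levels before and during that signal.

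The WT libraries held 2726097 to 10229138 reads, and the KO libraries 2065662 to 5907998. In M reads, their means were 6.12 ± 2.57 (SD, n = 8) and 3.66 ± 1.1 (SD, n = 8). The deepest library was the first WT library of 24 h, and the shallowest the first KO library of 8 h. Several of the gene identifiers listed beside the values did not go with them, and the pairing was therefore not used. Each of the 16 libraries had 0 in the rows listed as Ptprc (the leukocyte antigen CD45), Rplp0 (a ribosomal protein) and Gapdh (an enzyme of glycolysis). The row listed as Cd4 did not exceed 1.27, and that listed as Foxp3 did not exceed 2.53, so the labelled cell type could not be checked against its markers. The row listed as Actb, an actin, ran from 3.31 to 41.5, and that listed as Il2ra, the gene of CD25, from 3.42 to 24.8. Other rows were well above 0: the row listed as Eef1a1, a translation factor, ran from 670.5 to 866.7, and that listed as Cd3e, a chain of CD3, from 133.6 to 240.6. The row listed as Sh2d2a ran from 0 to 4.22 with a median of 0, and it checks nothing about the genotype labels. None of these rows was among the 100 features, which are therefore described as unnamed features, with no gene, function or sequence attached.

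Together the 75 features lower in KO held 1.07 to 1.36% of the reads in the WT libraries (median 1.15%) and 0.725 to 0.822% in the KO libraries (median 0.801%). The 25 features higher in KO held 0.28 to 0.349% of the WT reads (median 0.328%) and 0.433 to 0.464% of the KO reads (median 0.442%). In bulk RNA of this kind, fewer cells of a type and less RNA per cell cannot be told apart. Mean levels ran from 24.6 to 7620 normalised counts in the lower set, with a median of 242, and from 26.8 to 4770 in the higher set, with a median of 185. The median over the 10066 features of that level was 175. The map of all 100 features by library shows both blocks and where single libraries depart from their group.

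**Figure D1:**
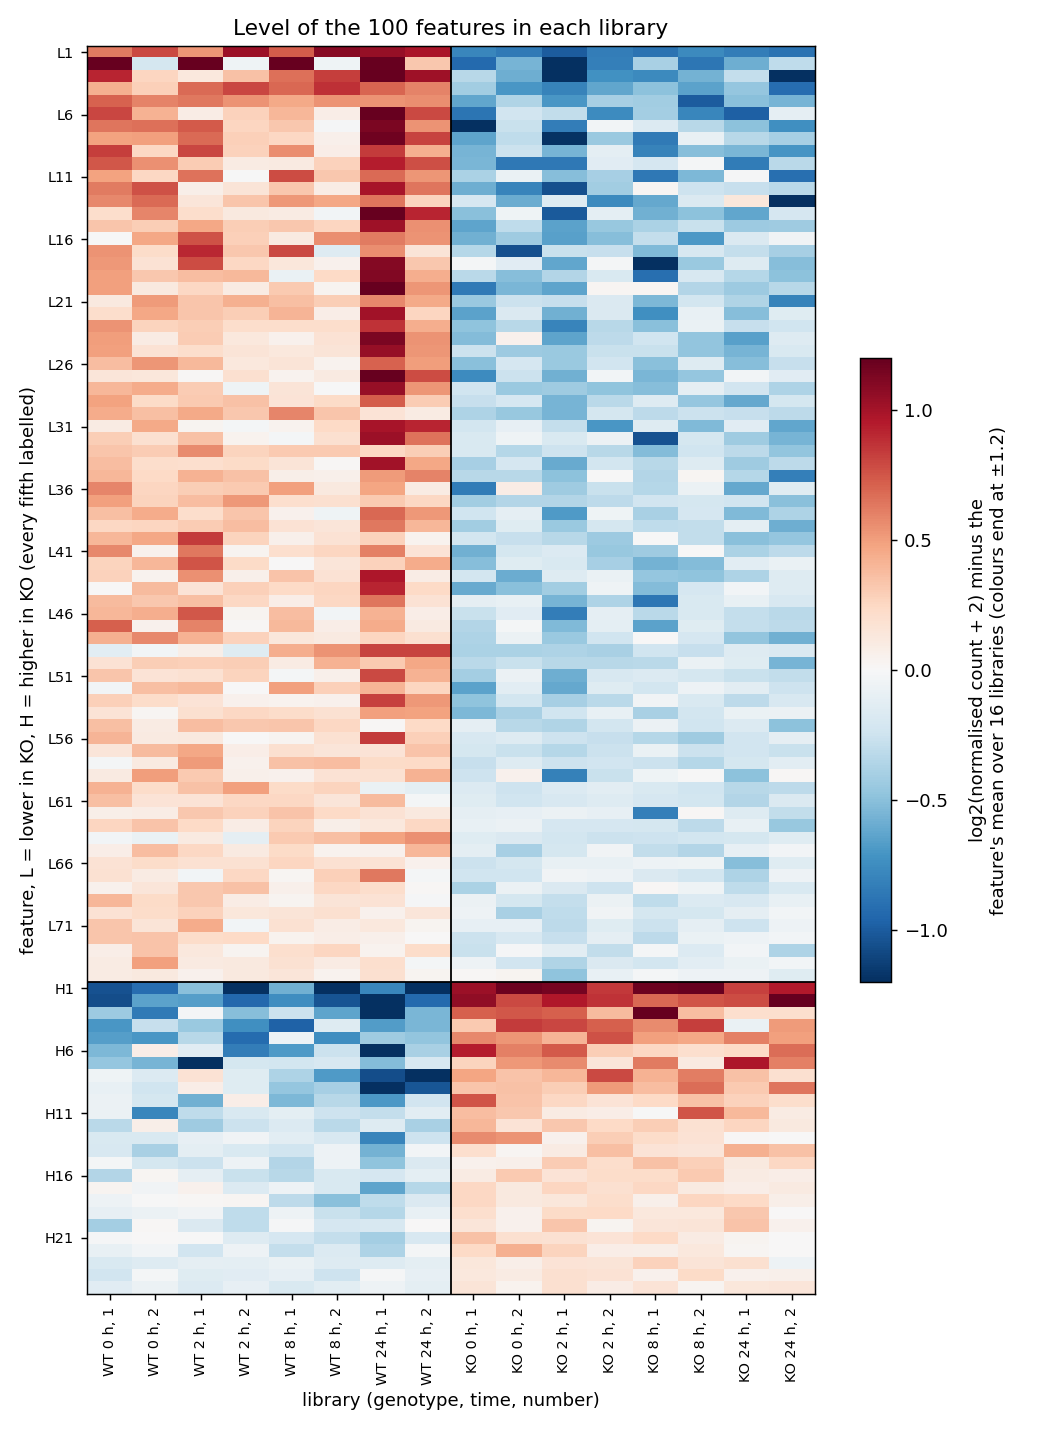
Level of each of the 100 features (rows) in each of the 16 libraries (columns), as log2(normalised count + 2) minus the feature's own mean over the 16 libraries, on a colour scale that ends at ±1.2. The upper 75 rows are lower in KO and the lower 25 rows higher, and the first WT library of 24 h is the darkest red column for many of the lower set.

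Among the features lower in KO, L1 had the largest difference averaged over time, at -1.71 on the log2 scale. In WT, L1, listed as ENSMUSG00000028837, had normalised counts of 246.7 and 276.4 in unstimulated cells, then 230.5 and 326.6 (2 h), 265.3 and 341.4 (8 h), and 330.3 and 315.1 (24 h). In KO it had 91.6 and 87.3, 78.7 and 88.9, 85.1 and 93.0, and 88.7 and 84.9 in the same order. The KO libraries lay close together at 29.9% of the WT mean, and the nearest libraries of the 2 genotypes were 2.48-fold apart, the widest gap of the lower set. The log2 difference, KO minus WT, was -1.53 in unstimulated cells and -1.69, -1.74 and -1.87 at the later times.

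L2, listed as ENSMUSG00000087381, behaved differently between WT libraries. From 0 h to 24 h its WT values were 206.2 and 59.8, 203.3 and 66.7, 173.7 and 66.8, and 241.2 and 87.1. Its KO values were 35.3 and 46.4, then 20.5 and 38.4, then 52.4 and 37.2, then 45.6 and 55.7 at the same times. The first WT library was 2.6 to 3.45 times the second at each time, so that the WT values formed a high and a low series. The lowest value of the low series, 59.8, lay just above the highest KO value, 55.7. The averaged difference of -1.53 covers both series. The first WT library was above the second at all 4 times in 12 of the 75 lower and 2 of the 25 higher features, beside 7.81% of all features, and the reverse held in 1 and 1, beside 6.37%. In KO the first was above the second at all 4 times in 0 lower and 3 higher features, beside 6.62%, and the reverse held in 13 and 1, beside 6.8%.

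L4 and L5 had narrower WT ranges. L4 stood at 445.8 and 404.1, 531.3 and 578.3, 534.6 and 611.9, and 537.4 and 500.8 in WT, against 248.3 and 204.1, 189.5 and 214.0, 235.8 and 211.7, and 240.2 and 174.8 in KO. Its log2 difference was -0.91 at 0 h and -1.45, -1.35 and -1.33 later, the smallest being that of the unstimulated cells. L5 stood at 340.8 and 315.2, 323.8 and 303.0, 286.0 and 304.2, and 304.4 and 307.1 in WT, and at 134.7 and 161.9, 127.8 and 157.5, 155.0 and 103.0, and 146.6 and 140.6 in KO. Its differences of -1.14, -1.13, -1.21 and -1.08 were nearly the same at the 4 times. L1, L4 and L5 were the only members of the lower set whose nearest WT and KO libraries were at least 1.5-fold apart.

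L3 and L6 were low features in which the first WT library of 24 h stood out. L3 had WT values of 39.4 and 24.2, 22.0 and 26.0, 32.7 and 37.2, and 76.5 and 42.4, and KO values of 15.5 and 12.7, 6.8 and 11.3, 10.9 and 12.9, and 16.01 and 6.3, from 0 h to 24 h. Its KO values rest on few reads, with 5 reads in the smallest, and its log2 difference ran from -1.04 at 0 h to -2.27 at 24 h. L6 had WT values of 68.1 and 51.7, 40.9 and 46.7, 51.0 and 40.6, and 118.9 and 67.6, and KO values of 19.9 and 32.4, 30.8 and 21.8, 28.4 and 21.5, and 18.5 and 35.5. In both features the highest WT value was that library's. L7 ranged from 55.7 to 125.4 in WT and from 19.9 to 55.0 in KO, and L8 from 149.4 to 323.8 and from 61.6 to 134.5. Their averaged differences were -1.07 and -1.06.

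**Figure D2:**
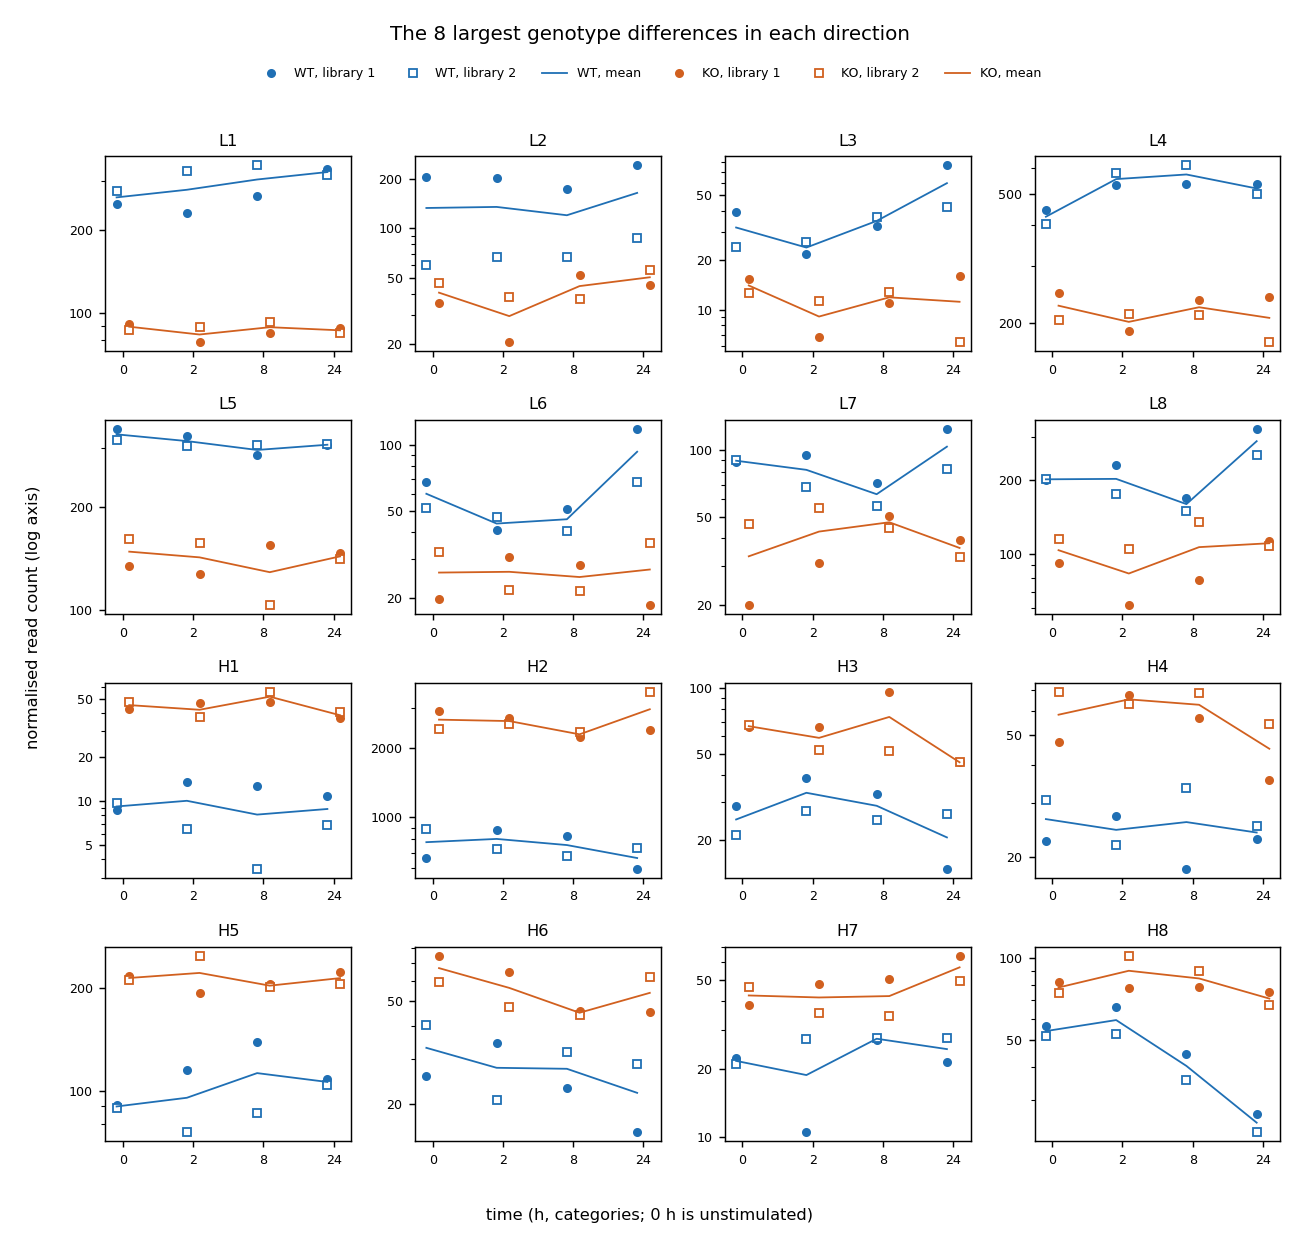
Normalised read counts (log axis) of the 8 largest averaged differences in each direction by time (h), with filled circles for library 1, open squares for library 2, blue for WT, orange for KO and lines through the means of the 2 libraries. L1, L5, H1 and H2 keep a clear gap at each time, while the WT libraries of L2 form a high and a low series.

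Over the whole lower set, the KO mean was 29.9 to 87.3% of the WT mean, with a median of 63.3%. The averaged difference reached 2-fold (1 log2 unit) in 9 of the 75 and was under 0.5 log2 units in 21. The gap between the nearest libraries of the 2 genotypes was narrow in most: its median ratio was 1.055, and it reached 1.2 in 12 features. The 4 members with the highest normalised counts were L64, L70, L37 and L15, with averaged differences of -0.40, -0.34, -0.66 and -0.88. L64 stood at 7319.4 and 7074.7 in WT and at 6768.0 and 6637.6 in KO at 0 h. L70 ranged from 4171 to 4867 in WT and from 3077 to 3937 in KO, and L37 from 3052 to 3826 and from 1887 to 2299. L15 had 2909.4 and 2839.9 in WT and 1487.8 and 1874.7 in KO at 0 h.

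Among the features higher in KO, H1 and H2 stood apart from the rest. H1, listed as ENSMUSG00000042821, had WT values of 8.7 and 9.7, 13.6 and 6.5, 12.7 and 3.4, and 10.8 and 6.9 from 0 h to 24 h. Its KO values were 43.0 and 47.9, 46.8 and 37.7, 48.0 and 55.8, and 36.9 and 40.5 at these times. The lowest KO library was 2.71 times the highest WT library, although the WT values are close to the depth limit, since 3 reads correspond to a normalised count of 1.3 to 4.85 in WT. The log2 differences were 2.08, 1.93, 2.59 and 1.93, and the KO mean was 493% of the WT mean.

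H2, listed as ENSMUSG00000042073, was abundant in both genotypes. It stood at 664.8 and 892.2, 883.4 and 725.4, 831.8 and 680.7, and 595.3 and 732.3 in WT, and at 2919.3 and 2416.6, 2709.4 and 2551.6, 2250.8 and 2353.2, and 2404.0 and 3519.7 in KO. No WT library exceeded 892.2 and no KO library fell under 2250.8. The log2 differences were 1.78, 1.71, 1.61 and 2.14. H1 and H2 were the only members of the higher set with a gap of at least 1.5-fold between the nearest libraries.

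The next 5 features had averaged log2 differences near 1. H3 ranged from 14.7 to 38.8 in WT and from 45.6 to 96.1 in KO. H4 ranged from 18.3 to 33.7 and from 35.7 to 69.0, and H5 from 75.6 to 139.4 and from 194.0 to 249.4. Their averaged differences were 1.14, 1.12 and 1.08, and the KO libraries of H4 began just above the WT libraries. H6 (15.6 to 40.4 in WT, 44.3 to 75.1 in KO) and H7 (10.5 to 27.5 and 34.3 to 64.04) had 0.99 and 0.95. Over the 25, the KO mean was 118 to 493% of the WT mean with a median of 139%, the averaged difference reached 1 log2 unit in 5 and stayed under 0.5 in 14. The most abundant of them was H17, with 4811.2 and 4580.7 in WT and 5611.3 and 5097.8 in KO at 0 h. H24 ranged from 2015 to 2382 in WT and from 2484 to 2821 in KO, an averaged difference of 0.25. H21, the fourth in level after H2, had an averaged difference of 0.32.

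The size of the difference varied with time in the lower set. Its median was -0.59 before stimulation, then -0.63 (2 h), -0.49 (8 h) and -0.75 (24 h), whereas the median over all 10066 features lay between -0.02 and 0.00. A difference of at least 2-fold was present in 11, 7, 7 and 28 of the 75 at these times, beside 1.67%, 1.46%, 1.89% and 3.75% of all features. Only L1, L2, L3 and L5 had it at each of the 4 times. The largest of the 4 differences fell at 24 h in 40 features, beside 36.3% of all features. The smallest fell at 8 h in 34, beside 23.8%. The difference at 24 h was larger than at 0 h in 53 of the 75, which is 70.7%, beside 57.2% of all features. These differences are built from the values by which the members were chosen. The values of all features are therefore printed beside them without being read against them.

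One library carried part of the 24 h values. The first WT library of 24 h gave the highest WT value in 38 of the 75 lower features, or 50.7%, and in 21.1% of all features. The median level of the 75 in that library was 0.22 log2 units above the WT mean, with 55 of the 75 above it. Over all 10066 features the median there was 0.02, with 5320 above the WT mean. For the 75, the other WT libraries lay between -0.13 and 0.04, and the KO libraries, against the KO mean, between -0.11 and 0.09. For the higher set that library was the lowest in the median, at -0.18. It was also the deepest library. With the second WT library of 24 h alone, the median difference of the lower set at 24 h was -0.69, a 2-fold difference was present in 14 of the 75 in place of 28, and the difference exceeded that at 0 h in 40 of the 75 in place of 53. With the first alone, these values were -0.98, 37 and 58.

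In the higher set the median difference was 0.40 at 0 h, 0.41 at 2 h and 0.53 at both 8 h and 24 h. A difference of at least 2-fold was present in 6, 5, 5 and 7 of the 25 at the 4 times, and only H1 and H2 had it at each of them. The time of the largest difference was spread, at 5, 7, 7 and 6 features, beside 23.3%, 15.8%, 24.6% and 36.3% of all features. The difference was larger at 24 h than at 0 h in 14 of the 25, or 56%, beside 57.2% of all features. Here too the shares of all features are not read against those of the set. Without the first WT library of 24 h it was larger in 12 of the 25, and the median difference at 24 h was 0.42.

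**Figure D3:**
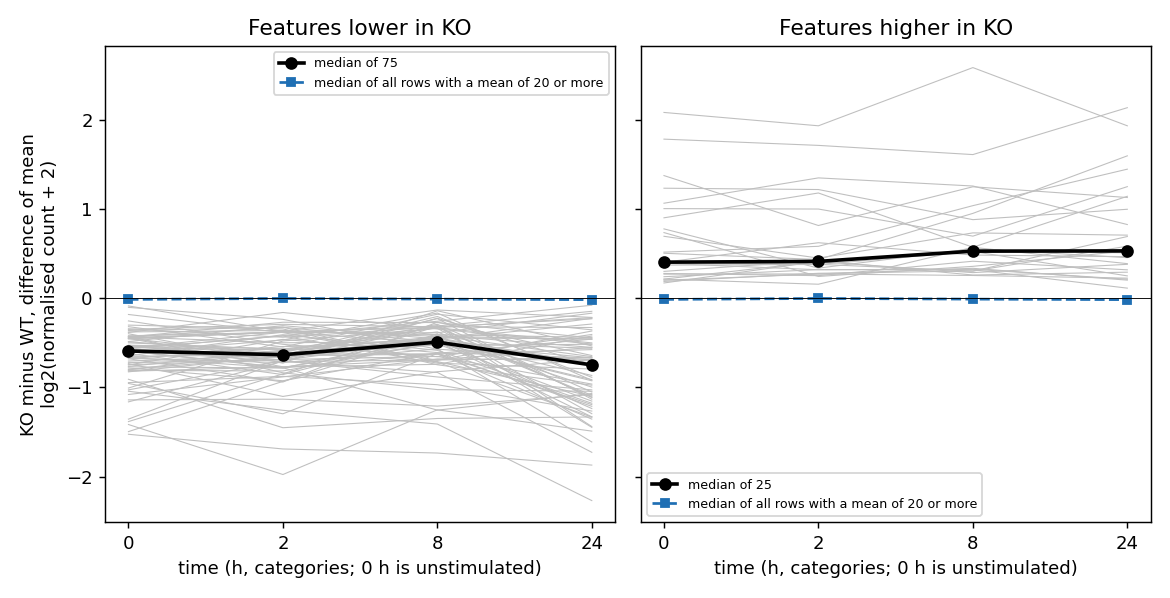
Log2 difference KO minus WT (vertical axis) at 0, 2, 8 and 24 h (horizontal axis, categories) for each feature (grey lines), with the median of the set in black and the median of all 10066 features dashed in blue. The median of the 75 lower features is -0.49 at 8 h and -0.75 at 24 h, and that of the 25 higher features is 0.40 at 0 h and 0.53 at 24 h.

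Single features moved in both directions. The differences that grew most from 0 h to 24 h in the lower set were those of L3, L32 (-0.36 to -1.33) and L14 (-0.67 to -1.61). Those that shrank most were L72 (-0.56 to -0.08), L30 (-0.82 to -0.42) and L17 (-1.08 to -0.70). L72 stood at 503.1 and 505.9 in WT and 333.3 and 347.6 in KO at 0 h, and at 414.2 and 398.8 in WT and 380.6 and 389.0 in KO at 24 h, so that its genotypes had nearly met by then. In the higher set the growing differences were those of H9 (0.50 to 1.60), H8 (0.52 to 1.45) and H17 (0.19 to 0.58). The shrinking ones were H11 (0.78 to 0.45), H3 (1.37 to 1.13) and H4 (1.06 to 0.83).

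The membership rule had sharp edges. L38 entered with its highest KO and lowest WT library both at 55.7, and H21 with 1306.0 as its highest WT and 1306.3 as its lowest KO value. Just outside, 1 feature had its highest KO value at 50.7 beside a lowest WT value that rounds to the same, and another its lowest KO value at 25.7 beside a highest WT value of 25.9. The lowest mean level inside was that of L3, at 24.6, and a lower feature with a mean of 18.5 separated the genotypes but missed the limit of 20. A single library kept 253 further features out, most often the second KO library of 24 h, with 50 features, and least often the first KO library of 2 h, with 8.

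Membership changed on thinning of the reads. When each library was thinned to 2065662 reads in a single random draw, the rule found 56 lower and 17 higher features. Of these, 40 and 12 were members before thinning. Of the leading 8 in each direction, 4 lower features (L1, L4, L5 and L8) and 6 higher features (H1, H2, H3, H5, H6 and H7) were kept. Scaling by edgeR's TMM kept 67 and 25 members, and scaling to the library's total reads alone kept 70 and 24.

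The change on stimulation is a contrast between times within a genotype, which the rule did not use as such. It did use the same libraries, however. A lower feature whose WT level fell far enough, or a higher feature whose WT level rose far enough, would not have become a member. The same holds for a lower feature whose KO level rose far enough and a higher feature whose KO level fell far enough. All 100 features passed the filter on low values (at least 10 in at least 2 libraries), which 12391 features passed, and they passed it within WT alone and within KO alone. Changes are differences in log2(normalised count + 2) with their moderated standard error from limma, and adjusted p is limma's, by Benjamini-Hochberg over all 12391 features with a threshold of 0.05.

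At 2 h against 0 h no member passed the limma test in WT, where 0.0888% of all features did, or in KO, where 0.00807% did. With an unadjusted p under 0.05 there was 1 member in WT, beside 3.32% of all features, and there were 2 in KO, beside 4.74%. Neither edgeR nor DESeq2 called any. At 8 h in WT, 2 lower members rose, or 2.67% of the 75, beside 0.541% of all features called higher and 0.549% called in either direction. An unadjusted p under 0.05 was found for 9 members, beside 6.62% of all features. L49 rose by 0.56 ± 0.11 (SE; limma adjusted p = 0.003534) and L64 by 0.40 ± 0.09 (limma adjusted p = 0.01867). The call of L49 was lost without the first WT library of 0 h (limma adjusted p = 0.0816) or the second of 8 h (0.1428), where its change was 0.52 and 0.51. That of L64 was lost without any 1 of the 4 WT libraries compared (0.08263 to 0.3276), with changes of 0.37 to 0.42. These changes were close to those with all libraries, on fewer libraries. At 8 h in KO no member passed limma's test, edgeR's or DESeq2's, where 0.0161% of all features passed limma's. An unadjusted p under 0.05 was found for 4 members, beside 7.01% of all features.

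At 24 h in WT 10 of the 100 members passed, beside 5.58% of all features, and 23 had an unadjusted p under 0.05, beside 17.5%. Of the 75 lower members 6 rose, or 8%, beside 3.56% of all features called higher, and 1 fell. Of the 25 higher members 3 fell, or 12%, beside 2.03% of all features called lower, and none rose. The median change at 24 h in WT was 0.16 in the lower set and -0.14 in the higher set, with a median of 0.01 over all features tested. The rule keeps out features that moved far the other way in WT. These splits and medians are therefore not read against all features.

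L49 had the smallest adjusted p. From 0 h to 24 h it had 982.6 and 1047.4, 1120.2 and 968.7, 1446.9 and 1555.5, and 1878.5 and 1873.6 in WT. In KO it had 822.3 and 823.4, 825.2 and 815.1, 906.0 and 881.2, and 959.4 and 947.7. The WT libraries of 8 h and 24 h lay above those of 0 h and 2 h without overlap, while the highest KO value was 959.4. The change at 24 h was 0.89 ± 0.11 in WT (limma adjusted p = 9.02e-07) and 0.21 ± 0.11 in KO.

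L64 followed the same course at a higher level. Its WT values were 7319.4 and 7074.7, 8069.8 and 6953.0, 9327.6 and 9633.6, and 10443.8 and 10969.0, and its KO values 6768.0 and 6637.6, 6434.6 and 6277.0, 6317.8 and 6441.6, and 6486.7 and 6768.3. All KO values lay within a narrow band, and the genotype difference went from -0.10 at 0 h to -0.69 at 24 h. The change at 24 h was 0.57 ± 0.09 in WT (limma adjusted p = 5.28e-05) and -0.02 in KO.

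The other 4 lower members that rose in WT by 24 h had values at 8 h near those of 0 h. L27 stood at 149.9 and 148.7 at 0 h, 139.4 and 145.9 at 8 h, and 358.8 and 234.9 at 24 h, a change of 0.95 ± 0.23 (limma adjusted p = 0.007764). L31 stood at 501.5 and 640.1, 482.0 and 552.7, and 929.1 and 881.2 at these times, a change of 0.67 ± 0.17 (limma adjusted p = 0.01196). The first WT library of 24 h was the higher of its pair in both. L15 went from 2909.4 and 2839.9 at 0 h through 2893.8 and 2766.1 at 8 h to 4674.4 and 3386.3 at 24 h (0.47 ± 0.12, limma adjusted p = 0.02059), with a KO change of 0.04. L54 went from 2487.7 and 2250.0 through 2583.9 and 2508.0 to 3126.2 and 3087.2 (0.39 ± 0.10, limma adjusted p = 0.01456), and its KO values went from 1527.6 and 1691.8 to 2097.4 and 2112.1, also 0.39 ± 0.10, with a limma adjusted p of 0.3203. L54 was thus a feature with like changes in both genotypes, called in WT alone.

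In WT 4 members fell. L60, a member of the lower set, went from 2046.1 and 1789.3 at 0 h to 1454.4 and 1411.8 at 24 h, a change of -0.42 ± 0.10 (limma adjusted p = 0.01041), beside -0.12 in KO. H9 went in WT from 160.2 and 143.9 to 180.2 and 153.6 at 2 h, 122.7 and 128.7 at 8 h, and 72.2 and 82.5 at 24 h, and in KO from 214.1 and 218.2 to 208.9 and 243.3, 220.5 and 271.8, and 211.8 and 266.1. Its WT libraries of 24 h were the lowest of the 8, and KO showed no such drop. Its changes at 24 h were -0.96 ± 0.19 in WT (limma adjusted p = 0.001229) and 0.13 in KO.

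H8 and H17 fell in WT as well. H8 had 56.3 and 51.7 at 0 h and 26.8 and 22.9 at 24 h in WT (-1.06 ± 0.29, limma adjusted p = 0.02075), and 81.7 and 74.6 against 75.1 and 67.2 in KO. H17 had 4811.2 and 4580.7 against 3032.8 and 3706.0 in WT (-0.49 ± 0.10, limma adjusted p = 0.002472), and 5611.3 and 5097.8 against 4983.0 and 5064.2 in KO. For both, the WT pairs at 0 h and 24 h did not overlap.

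**Figure D4:**
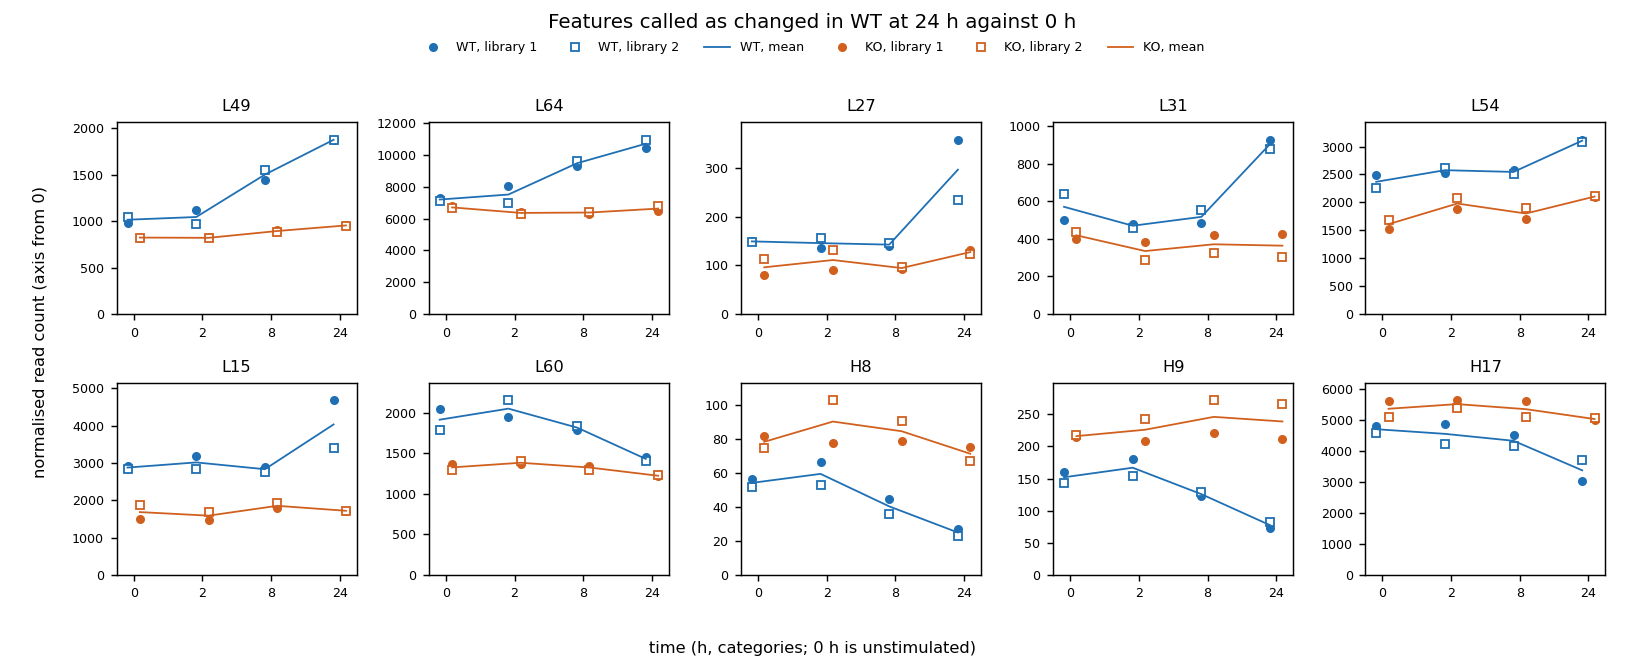
Normalised read counts (axes from 0) by time (h) of the 10 members called in WT at 24 h against 0 h, with circles and squares for the 2 libraries of a group and lines through their means. In L49 and L64 WT (blue) rises at 8 h and 24 h while KO (orange) does not exceed 959.4 and 6768.3, and in H8 and H9 the WT values fall to 22.9 to 82.5 at 24 h.

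Dropping the first of the WT libraries taken at 24 h left 2 of the 10 called, L49 (0.88, limma adjusted p = 0.0001366) and L64 (0.61, limma adjusted p = 0.001035). The others had limma adjusted p-values without it of 0.05068 for H9, 0.08284 for L60, 0.09708 for H8, 0.1444 for L54, 0.1598 for L31, 0.177 for H17, 0.3404 for L27 and 0.544 for L15, and their signs were as before. The change itself went from 0.47 to 0.24 in L15, from 0.95 to 0.65 in L27 and from -0.49 to -0.34 in H17. It stayed close to that with all libraries in L60 (-0.44), H8 (-1.17), L54 (0.38), L31 (0.64) and H9 (-0.86), where fewer libraries went into the test. L54, L60 and H8 were also lost without the second WT library of 24 h, at 0.0603, 0.07325 and 0.1283. L15, L27 and H8 were lost on dropping either of the unstimulated WT libraries. L31 and L60 were lost on dropping the first, with changes of 0.50 and -0.32. L54 was lost on dropping the second, with a change of 0.32. The 3 members with the largest gaps between genotypes were not called: the change in WT at 24 h was 0.30 for L1 (limma adjusted p = 0.4724), -0.07 for H1 (0.9711) and -0.22 for H2 (0.651).

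In KO at 24 h no member passed limma's test, edgeR's or DESeq2's, and 0.0161% of all features passed limma's. With an unadjusted p under 0.05 there were 6 members by limma, beside 6.69% of all features, and the lowest adjusted p was 0.3203 by limma, 0.3925 by edgeR and 0.07556 by DESeq2. The median change in KO at 24 h was -0.02 in the lower set and -0.09 in the higher set. Both KO libraries of 24 h lay above both of 0 h in 12 of the 75 lower features and below in 11, beside 17.8% and 15.9% of all features. In WT the counts were 28 above and 12 below, beside 26.4% and 23.6%. Among the 25 higher features, 3 lay above and 9 below in KO, and 1 above and 7 below in WT. The rule bears on these counts and medians in both genotypes, and they are not read against all features.

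Whether the change differed between genotypes was tested by the interaction, the KO change minus the WT change. It is also the genotype difference at a time minus that at 0 h, and so is built from the values by which the members were chosen. The share of members called is therefore printed beside that of all features without being read against it. At 24 h 3 members passed, where 0.751% of all features did, and 14 had an unadjusted p under 0.05, where 11.3% did. The interaction was -0.59 ± 0.12 for L64 (limma adjusted p = 0.01383), -0.67 ± 0.15 for L49 (0.02163) and 1.09 ± 0.27 for H9 (0.04197). In each of them the genotypes differed more at 24 h than at 0 h, and it was WT that moved away from KO. When the first WT library of 24 h was left out, L64 was still called (limma adjusted p = 0.04951), while L49 had 0.1399 and H9 0.2611. The interactions were then -0.62, -0.67 and 1.00, near those with all libraries. Leaving out 1 unstimulated KO library, the first or the second, left none of the 3 called, with limma adjusted p-values of 0.0598 and 0.05795 for L64. L64 was the only one of the 3 to pass when the first unstimulated WT library was dropped, and likewise for the second KO library at 24 h. Dropping the second unstimulated WT library left L49 alone, with 0.05325 for L64. H9 was also lost, at 0.05302 to 0.05556, on dropping any 1 of the libraries from WT at 8 h and KO at 2 h. With the second WT library of 24 h left out, all 3 were called, and so were L15 and L34.

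For the other members called in WT at 24 h the difference between genotypes was not called by limma. L31 had an interaction of -0.90 ± 0.23 (limma adjusted p = 0.06577), and it was called by DESeq2 (-0.87, DESeq2 adjusted p = 0.03143) and by limma with a block for the replicate number within each genotype (limma adjusted p = 0.02308). H8 had 0.93 ± 0.40 (limma adjusted p = 0.3597). The limma adjusted p was 0.2397 for H17, 0.3166 for L15, 0.431 for L60, 0.5717 for L27 and 0.9975 for L54, whose interaction was 0.00. For L31 the answer thus depended on the tool and the model, and for the other 6 features a call in WT and none in KO was no shown difference. The median interaction at 24 h was -0.13 in the lower set and 0.02 in the higher set, beside -0.02 over all features tested. In the lower set 53 of the 75 were below 0 by limma, 46 by edgeR, 48 by DESeq2 and 49 after thinning. These interactions are built from the values by which the members were chosen, and the median of all features was itself below 0. The counts are therefore not read as a change of the set.

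At 2 h and at 8 h no member passed limma's interaction test, beside 0.00807% and 0.0484% of all features. With an unadjusted p under 0.05 there were 1 and 7 members at these times, beside 3.0% and 5.84% of all features. edgeR called none at either time, and DESeq2 called L64 at 8 h, with an interaction of -0.47 and a DESeq2 adjusted p of 0.02273.

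**Figure D5:**
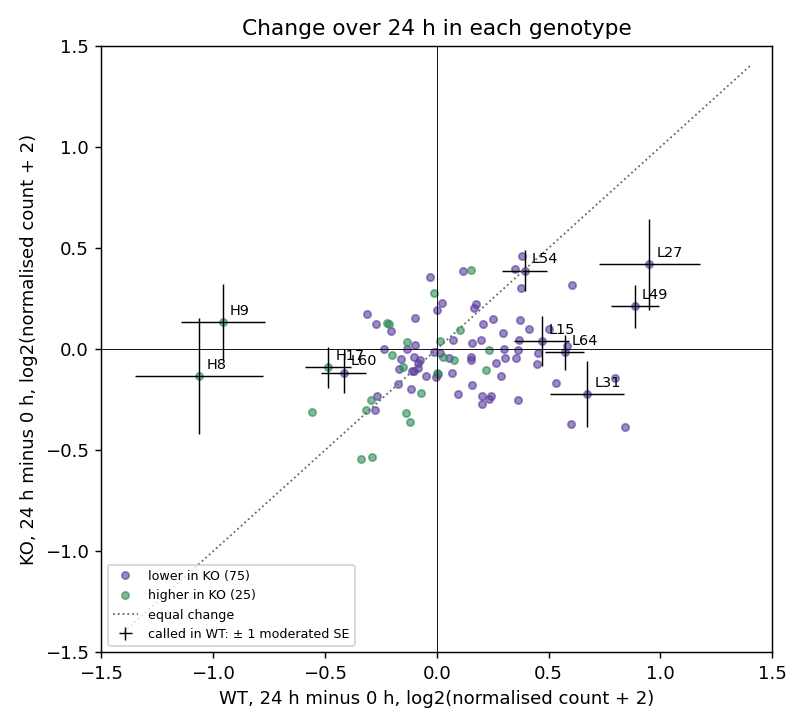
Change from 0 h to 24 h in WT (horizontal axis) and in KO (vertical axis), both in log2(normalised count + 2), for the 75 lower (purple) and 25 higher (green) members, with ±1 moderated SE for the 10 called in WT and a dotted line where both changes are equal. L54 lies on the line at 0.39 in both genotypes, and L49, L64 and H9 lie away from it.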

How the data were processed

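The submitters' processing notes name STAR 2.6.0a, HTSeq and DESeq2 with the mouse build GRCm38.p6, without settings for counting. Although its header speaks of counts, the deposited column held a normalised signal, namely whole reads scaled by a single factor in each library: 100% of non-zero values gave whole reads within 0.01. How the authors computed the factor is not stated. One of 27803 rows was a duplicate with identical values and was removed.

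The members and lists were chosen with earlier results of these data known. Time contrasts were tested with limma 3.58.1 (R 4.3.3, trended and robust prior variance) on log2(value + 2), in 1 model of all 16 libraries with 8 group means. This understates changes of low features. edgeR 4.0.16 (quasi-likelihood) and DESeq2 1.42.0 on the recovered reads, other scalings, pseudocounts of 0.5 and 8, filters, mean limits of 10 and 50, thinning, a replicate block and leaving out each library were alternatives. The statistics were tested on simulated data.

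Described with values were the 8 largest averaged differences and the 4 highest levels per direction, the called members (up to 6 per contrast and direction), those at the edges of the rule, and the 3 whose difference grew or shrank most. Python 3.11.15 and matplotlib 3.10.9 drew the plots.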

Additional observations from a re-analysis of the deposited data

Results flagged for a closer look

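Changes from 0 h to 24 h that differed between genotypes, by limma's interaction test (KO change minus WT change), were found for 3 members. L49 had -0.67 (WT change 0.89, KO change 0.21), and its call was held under 20 of 27 alternatives, with adjusted p-values up to 0.1399. L64 had -0.59 (WT change 0.57, KO change -0.02), and its call was held under 24 of 27, with adjusted p-values up to 0.0598. H9 had 1.09 (WT change -0.96, KO change 0.13), and its call was held under 15 of 27, with adjusted p-values up to 0.2611. The sign was the same in each of these alternatives. In those that changed only the filter or the replicate block, or left out a library of 2 h or 8 h, the change itself could not move. Only its p-value could, and the sign there was fixed in advance. Membership itself held for L64 under TMM scaling, scaling to total reads and thinning. H9 was no longer a member after thinning. L49 was a member under TMM scaling but not under scaling to total reads or after thinning.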

How the results depend on the processing

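Membership depended on which libraries were used: without all libraries of 24 h, an alternative chosen after seeing the data, the rule gave 155 lower and 92 higher features, and leaving out 1 library at a time gave 80 to 100 lower and 25 to 56 higher features, since fewer values have to be separated. With all libraries, 2 members were called in WT at 8 h, 10 in WT at 24 h and 3 for the interaction at 24 h. Each of these counts fell when certain libraries were left out singly, which leaves 1 library in the group. The counts at 24 h rose when certain others were left out. Without a filter on low values the interaction at 24 h had 1 member, and DESeq2 gave 1 at 8 h and 4 at 24 h. No count of members and no change of a member named as called reversed its direction, but thinning turned the sign of 2 medians near 0 that are given for 24 h: the KO change at 24 h in the lower set (0.01) and the interaction at 24 h in the higher set (-0.02). Of 405 alternatives for the called changes of single members, 353 kept the call and 52 lost it. Many of the 405 left out a library that the contrast does not use. The change was then the same by construction, so that the tally says little about its stability. The replicate numbers were not taken to pair libraries, since not every correlation of same-numbered deviations was above 0.1: it was -0.0337 to 0.195 between WT times, where 3 of 6 pairs exceeded 0.1, 0.02 to 0.0708 between KO times and -0.118 to 0.0825 between genotypes. With the replicate number as a block, the counts of members called were 2 in WT at 8 h, 10 in WT at 24 h and 3 for the interaction at 24 h. A block within each genotype, added after seeing the data, gave 12 in WT at 24 h, with L14 and L34 added, and 4 for the interaction at 24 h, with L31 added. The smallest value of L3 and of H1 was 5 reads. Thinning lost L3 but kept H1, and it also lost L49, L60 and H21, which stood at far higher levels. It was a single random draw, and another draw could keep or lose other features. H21 had been a member by a narrow gap, with 1306.0 as its highest WT and 1306.3 as its lowest KO value.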
